A study of Rattus norvegicus with 18 samples.

Results

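The T and NK cell genes were Cd3d, Cd3e, Cd3g, Cd8a, Cd2, Klrd1, Ncr1, Nkg7, Prf1 and Gzmb, taken by symbol from the tables of both time points. All 10 were found among the 30643 genes of each table. They were measured by RNA sequencing of synovial cells captured on CD11b/c beads from knees of male, wild-type Sprague Dawley rats operated on at 12 weeks of age. OA rats underwent transection of the anterior cruciate ligament and the medial meniscotibial ligament, and sham rats an arthrotomy. At 4 weeks after surgery there were 5 OA and 5 sham libraries, each a pool of 4 rats. At 12 weeks there were 4 OA and 4 sham libraries, each a pool of 3 rats. All groups shared the bead sort, so the cells were a myeloid-enriched fraction and not sorted lymphocytes.

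T cells recognise antigen through a receptor that signals through the CD3 chains, and the CD8 co-receptor marks the cytotoxic subset. NK cells carry no such receptor and read activating and inhibitory surface receptors instead, of which NKp46 (Ncr1) and CD94 (Klrd1) are examples. Both cell types kill with granules that hold perforin and granzymes, and both have been described in arthritic synovium. CD11b is carried mainly by myeloid cells, though NK cells and some T cells carry it too.

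Recovered reads ranged from 4662344 to 18080503 per library, and the 3-read floor lay between 2.06 and 6.96 normalized reads at 4 weeks and between 2.27 and 3.82 at 12 weeks. A normalized read is a read count divided by the size factor of its library. Sham replicate 3 of 4 weeks was the shallowest library. In that library the median gene with a mean of 1 to 50 normalized reads lay 1.49 log2 units above the other sham libraries of 4 weeks, over 11456 such genes, while genes with a mean of at least 50 lay at -0.16. Summed over 10 macrophage markers, every library held between 135933 and 216545 normalized reads, so markers of the labelled myeloid cells were read throughout. The 4 endothelial markers measured summed to 22146 to 37305 normalized reads over the libraries, and the 4 fibroblast markers to 11439 to 34970. Markers of cells other than myeloid cells were thus also read in every library. The 7 B and plasma cell markers summed to 23.8 to 145 normalized reads. The T and NK cell genes together took 9.25 to 31.3 CPM (counts scaled to a common library total), with the highest sum in sham replicate 3 of 4 weeks. Cd2 and Cd8a made up 45.9% to 79.2% of these reads per library.

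The promoters of 8 of the 10 genes were matched in RefSeq (GRCr8), and those of Klrd1 and Ncr1 were not. Each runs from 250 bases before the annotated start to 50 after it. Those of Cd3d and Cd3e are shown because these genes had the largest differences at 4 weeks, and those of Cd2 and Prf1 because they hold the core letters bound by RUNX factors, which act in T and NK cell development. Capitals mark TGTGGT or its reverse complement ACCACA, searched on both strands.
Cd3d (chr8:54185269-54185568, plus strand): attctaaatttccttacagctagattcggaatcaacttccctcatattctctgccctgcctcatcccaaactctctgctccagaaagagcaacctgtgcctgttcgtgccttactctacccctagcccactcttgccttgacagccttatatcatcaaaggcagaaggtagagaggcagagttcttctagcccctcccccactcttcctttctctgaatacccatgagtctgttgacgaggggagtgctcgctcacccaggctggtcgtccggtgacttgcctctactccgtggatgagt
Cd3e (chr8:54211721-54212020, minus strand): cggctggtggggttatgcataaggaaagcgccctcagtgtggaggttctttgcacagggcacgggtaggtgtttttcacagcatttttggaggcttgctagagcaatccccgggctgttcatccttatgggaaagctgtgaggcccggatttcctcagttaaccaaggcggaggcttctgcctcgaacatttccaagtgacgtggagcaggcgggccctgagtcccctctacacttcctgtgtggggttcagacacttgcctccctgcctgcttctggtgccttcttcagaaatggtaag
Cd2 (chr2:191412610-191412909, minus strand): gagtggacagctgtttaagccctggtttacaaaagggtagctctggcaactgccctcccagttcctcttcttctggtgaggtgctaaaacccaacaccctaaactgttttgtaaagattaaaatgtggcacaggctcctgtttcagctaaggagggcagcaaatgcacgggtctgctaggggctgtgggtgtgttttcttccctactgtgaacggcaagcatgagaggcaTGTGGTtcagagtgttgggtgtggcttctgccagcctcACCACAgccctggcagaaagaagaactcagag
Prf1 (chr20:29788790-29789089, plus strand): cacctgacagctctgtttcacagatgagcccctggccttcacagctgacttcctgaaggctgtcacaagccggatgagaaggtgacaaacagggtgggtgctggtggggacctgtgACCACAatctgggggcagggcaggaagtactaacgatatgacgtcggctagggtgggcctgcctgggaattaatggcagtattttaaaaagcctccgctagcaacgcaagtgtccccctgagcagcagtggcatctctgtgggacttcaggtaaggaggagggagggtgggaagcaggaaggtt
The letters were found in 4 of the 8 promoters (Cd2, Gzmb, Nkg7 and Prf1) and in 5789 of all 33469 promoters of the same length (17.3%). They were not in the windows of Cd3d, Cd3e, Cd3g or Cd8a. The letters GAGGAA, bound by the myeloid and B cell factor PU.1, or their reverse complement TTCCTC were in 2 of the 8 promoters (Cd2 and Cd3e) and in 27.6% of all promoters, with no overlap between the matches of both motifs. In the same annotation Cd3g, Cd3d and Cd3e are neighbours on chromosome 8, with Cd3g and Cd3d transcribed away from each other.

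The question at each time point was whether these genes differed between OA and sham synovium. None was called in limma, edgeR or DESeq2 at either time point, where a call needed an adjusted p under 0.05 and a log2 difference of at least 0.5. Over all genes limma and edgeR called 0% at both times, and DESeq2 0.159% at 4 weeks and 0.671% at 12 weeks. At 4 weeks the 4 genes that averaged 10 or more normalized reads (Cd8a, Cd2, Nkg7 and Prf1) entered limma, and 0 of the 4 had an unadjusted p under 0.05 in limma or edgeR, against 7.92% of all genes in limma and 8.09% in edgeR. DESeq2, which took all 10, gave 2 (Cd3d and Cd3e) against 9.08% of all genes. Without sham replicate 3 DESeq2 gave 0 of the 10, with unadjusted p of 0.117 for Cd3d and 0.271 for Cd3e. At 12 weeks 5 genes entered limma, and 1 of the 5 (Ncr1) had an unadjusted p under 0.05 in limma and in edgeR, against 12.4% and 12.5% of all genes, while DESeq2 gave 0 of 10 against 6.65%. Ncr1 averaged 10.9 normalized reads, with 7.85 in OA and 14.0 in sham, so it passed the filter through sham alone. Its entry into the test thus depended on the group where it was high. Unadjusted p under 0.05 was split over all genes in limma as 4.1% higher and 3.82% lower in OA at 4 weeks, and 5.75% and 6.62% at 12 weeks. Leaving aside Cd3g and Gzmb, which never passed the 3-read floor, the log2 difference was below 0 in OA for 7 of 8 genes at 4 weeks, with a median of -0.53, and for 5 of 8 at 12 weeks, with a median of -0.30. Without sham replicate 3 it was 6 of 8 at 4 weeks, with a median of -0.35. Over all genes tested in limma 42.9% were lower in OA at 4 weeks and 52.5% at 12 weeks. Over all genes with a mean of 1 to 50 normalized reads, closer in level to the members, the shares were 78.7% at 4 weeks (median log2 difference -0.47; 67.2% and -0.20 without sham replicate 3) and 38.3% at 12 weeks (median 0.13). In bulk libraries fewer T or NK cells and less RNA per cell cannot be told apart.

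**Figure D1:**
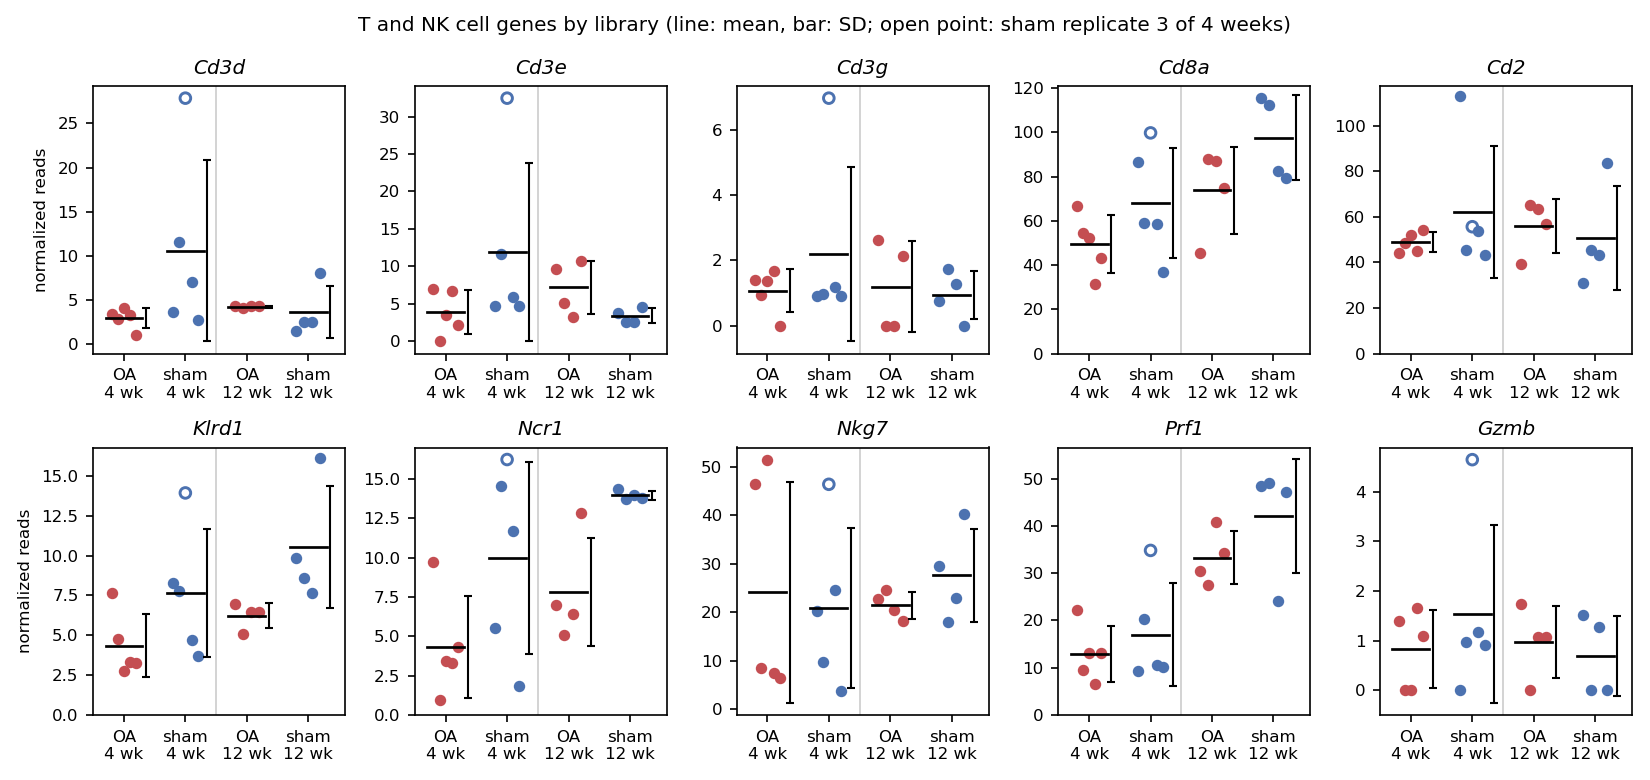
Normalized reads (y axis of each panel, linear) of the 10 genes in each of the 18 libraries, with OA in red and sham in blue at 4 and 12 weeks; lines are means, bars are SD, and the open point is sham replicate 3 of 4 weeks. That library is the highest of its time point for 8 of the 10 genes, and at 12 weeks OA and sham do not overlap for Klrd1 and Ncr1.

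The CD3 chains carry the signal of the T cell receptor into the cell. Cd3d encodes CD3 delta. At 4 weeks its OA libraries 1 to 5 held 3.47, 2.86, 4.12, 3.32 and 1.08 normalized reads, and its sham libraries 3.68, 11.6, 27.9, 7.03 and 2.76. The groups overlapped, since sham replicates 1 and 5 lay within the OA range. OA averaged 2.97 ± 1.15 and sham 10.6 ± 10.3 (SD, n = 5 each), which is a difference of -1.20 on the log2(normalized reads + 1) scale (exact permutation test, two-sided, p = 0.0794). Without sham replicate 3 the difference was -0.77 (exact p = 0.159). DESeq2 gave an unadjusted p of 0.0168 and an adjusted p of 0.311, and an unadjusted p of 0.117 without sham replicate 3.

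Cd3e encodes CD3 epsilon, the chain most T cell antibodies bind. At 4 weeks it held 6.93, 0, 3.43, 6.65 and 2.17 normalized reads in OA and 4.60, 11.6, 32.5, 5.86 and 4.60 in sham. The groups overlapped, and the highest 2 values were sham replicates 3 and 2, the same 2 as for Cd3d. The log2 difference was -1.35 (exact permutation test, two-sided, p = 0.103) and -0.91 without sham replicate 3 (exact p = 0.206). DESeq2 gave an adjusted p of 0.436. These values rest on few reads: 0 to 14 per library for Cd3e and 1 to 12 for Cd3d over both time points.

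At 12 weeks the CD3 chains were not lower in OA. Cd3d held 4.36, 4.09, 4.29 and 4.29 normalized reads in OA and 1.51, 2.58, 2.54 and 8.04 in sham, with the single highest value in sham replicate 4. The log2 difference was 0.35 (exact permutation test, two-sided, p = 0.486), with 0.11 without sham replicate 1 and 0.73 without sham replicate 4. Cd3e held 9.60, 5.11, 3.22 and 10.7 in OA and 3.78, 2.58, 2.54 and 4.60 in sham, where 3 of the 4 OA libraries lay above every sham library. Its log2 difference was 0.81 (exact p = 0.114). The OA effect on Cd3e differed between times by 2.57 log2 units in DESeq2 (SE 1.02, unadjusted p = 0.0120, adjusted p = 0.914) and that on Cd3d by 1.94 (SE 1.01, adjusted p = 0.944), so neither difference between 4 and 12 weeks passed the test over all genes.

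Cd3g, which encodes CD3 gamma, lay at or under the floor of 3 reads in all 18 libraries, with 0 reads in 4 of them. Its values ran from 0 to 1.66 normalized reads in OA and from 0.921 to 6.96 in sham at 4 weeks, and from 0 to 2.62 and 0 to 1.72 at 12 weeks. No difference was detectable at this depth, and no fold is given. Summed over the 3 chains, the CD3 reads came to 3 to 17 in OA and 9 to 29 in sham per library at 4 weeks, and to 7 to 19 and 5 to 11 at 12 weeks. As a share of the reads of all 10 genes the 3 chains made up 2.52% to 10.5% in OA and 3.65% to 19.9% in sham at 4 weeks.

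Cd8a encodes the alpha chain of the CD8 co-receptor of cytotoxic T cells. It held 38 to 153 reads per library, and which cells of the sort they came from was not tested. At 4 weeks it held 66.6, 54.3, 52.2, 31.6 and 43.4 normalized reads in OA and 86.6, 59.1, 99.8, 58.6 and 36.8 in sham. The groups overlapped, with sham replicate 5 among the lowest values and sham replicates 1 and 3 above every OA library. The means were 49.6 ± 13.0 and 68.2 ± 25.0 (SD, n = 5 each), a log2 difference of -0.41 (SE 0.27, limma adjusted p = 0.694), and -0.26 without sham replicate 3. The 12-week libraries held 45.4, 87.8, 86.9 and 75.1 in OA and 116, 113, 82.7 and 79.3 in sham. Sham replicates 1 and 2 lay above every OA library, and the other two lay within the OA range, which gave a log2 difference of -0.42 (SE 0.22, limma adjusted p = 0.457). Without OA replicate 1 it was -0.21. Cd8b, its partner chain, gave log2 differences of -0.40 at 4 weeks (limma adjusted p = 0.734, and -0.20 without sham replicate 3) and -0.10 at 12 weeks (limma adjusted p = 0.885).

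Cd2 encodes an adhesion receptor of T and NK cells that binds CD48 in rodents. At 4 weeks it held 44.4, 48.6, 52.2, 44.9 and 54.2 normalized reads in OA and 113, 45.6, 55.7, 53.9 and 43.3 in sham. The 5 OA libraries lay close together, and sham replicate 1 alone stood above the rest. OA minus sham was -0.25 log2 units (SE 0.23, limma adjusted p = 0.767), and leaving out 1 library at a time gave -0.36 to -0.018, the latter without sham replicate 1. At 12 weeks Cd2 held 39.3, 65.4, 63.3 and 56.8 in OA and 31.0, 45.5, 43.2 and 83.9 in sham, a log2 difference of 0.21 (SE 0.28, limma adjusted p = 0.776). It was 0.0058 without sham replicate 1, 0.13 without OA replicate 2, 0.37 without OA replicate 1 and 0.48 without sham replicate 4. Cd48, the gene of its ligand, held 3334 ± 127 normalized reads in OA and 3245 ± 301 in sham at 4 weeks (SD, n = 5 each) and 3801 ± 205 and 3709 ± 176 at 12 weeks (SD, n = 4 each), with log2 differences of 0.043 and 0.035.

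**Figure D2:**
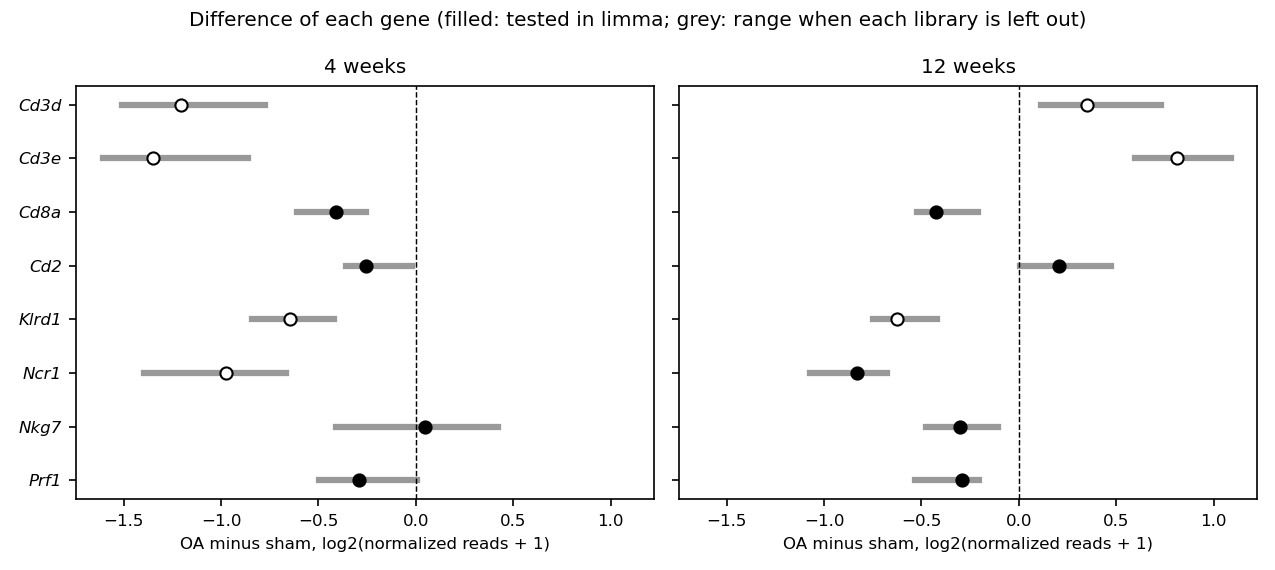
Difference of mean log2(normalized reads + 1), OA minus sham (x axis), for the 8 genes that passed the 3-read floor in some or all libraries. The left panel is 4 weeks and the right panel 12 weeks. Filled points entered limma, open points did not, and grey bars span the values when each library is left out in turn. Cd3d lay at or under 3 reads in 6 of the 18 libraries and Cd3e in 5. At 4 weeks Cd3e (-1.35) and Cd3d (-1.20) lie farthest from 0, and at 12 weeks Ncr1 (-0.83) and Cd3e (0.81).

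Ncr1 encodes NKp46, an activating receptor regarded as one of the most selective markers of NK cells and related innate lymphoid cells. Its 12-week libraries held 6.98, 5.11, 6.43 and 12.9 normalized reads in OA and 14.4, 13.8, 14.0 and 13.8 in sham. Every OA library lay below every sham library, with OA replicate 4 close to the sham values. The means were 7.85 ± 3.44 in OA and 14.0 ± 0.278 in sham (SD, n = 4 each), from 5 to 12 and 11 to 19 reads per library. The log2 difference was -0.83 (SE 0.29, limma unadjusted p = 0.0163, adjusted p = 0.332), so Ncr1 did not pass the test over all genes. It entered limma through its sham mean alone, since the OA mean lay under the filter. An exact permutation test gave p = 0.0286, the smallest that 4 against 4 libraries allow. Among all genes tested 3.44% had every OA library below every sham library at 12 weeks and 2.85% the reverse, 6.29% in all.

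Klrd1 encodes CD94, which pairs with NKG2 receptors on NK cells and some CD8 T cells. Its 12-week libraries held 6.98, 5.11, 6.43 and 6.43 normalized reads in OA and 9.82, 8.59, 7.63 and 16.1 in sham. The groups did not overlap here either, with sham replicate 4 the highest. OA lay -0.63 log2 units from sham (exact permutation test, two-sided, p = 0.0286, again the smallest possible), from 5 to 8 reads in OA and 6 to 14 in sham. With a mean of 8.39 normalized reads it did not enter limma, and DESeq2 gave an unadjusted p of 0.140. Ncr1 and Klrd1 were the 2 of the 10 genes whose groups were separate at 12 weeks, on at most 19 reads per library. Among all 9322 genes with a mean of 1 to 50 normalized reads at 12 weeks, 4.19% were separate, 1.12% with OA lower.

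At 4 weeks the same receptors overlapped between groups, as did all 10 genes, where 1.87% of all genes tested did not overlap (1.18% higher and 0.693% lower in OA). Ncr1 held 9.71, 0.953, 3.43, 3.32 and 4.34 normalized reads in OA and 5.53, 14.5, 16.2, 11.7 and 1.84 in sham, a log2 difference of -0.98 (exact permutation test, two-sided, p = 0.175). Sham replicate 5 was among the lowest libraries and sham replicates 2, 3 and 4 lay above every OA library. Klrd1 held 7.63, 4.76, 2.75, 3.32 and 3.25 in OA and 8.29, 7.76, 13.9, 4.69 and 3.68 in sham, a log2 difference of -0.65 (exact p = 0.0873). Without sham replicate 3 the differences were -0.75 for Ncr1 (exact p = 0.333) and -0.42 for Klrd1 (exact p = 0.175).

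Prf1 encodes perforin, which opens pores in target cells. At 4 weeks it held 22.2, 9.53, 13.0, 6.65 and 13.0 normalized reads in OA and 9.21, 20.4, 34.8, 10.5 and 10.1 in sham, with wide overlap. OA minus sham was -0.29 log2 units (SE 0.41, limma adjusted p = 0.855), and it was 0.0040 without sham replicate 3, so the direction rested on that library. At 12 weeks Prf1 held 30.5, 27.6, 40.8 and 34.3 in OA and 48.4, 49.0, 24.2 and 47.1 in sham. Sham replicates 1, 2 and 4 lay above every OA library and sham replicate 3 below them all. OA minus sham was -0.29 log2 units (SE 0.25, limma adjusted p = 0.633), and -0.53 without sham replicate 3.

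Gzmb encodes granzyme B, the protease that perforin lets into the target cell. It lay at 0 to 2 reads in all 18 libraries, with 0 in 6 of them, all at or under the floor. No difference was detectable at this depth, and no fold is given. Granzymes form a family of similar genes, so reads may be shared among them. Gzma, another granzyme of the list of NK and cytotoxic genes, held 13.1 ± 2.14 normalized reads in OA and 17.4 ± 5.95 in sham at 12 weeks (SD, n = 4 each), a log2 difference of -0.33 (limma adjusted p = 0.642). At 4 weeks Gzma did not pass the filter, with 5.82 to 8.24 normalized reads in OA and 0.921 to 16.2 in sham.

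Nkg7 encodes a protein of the cytotoxic granule membrane. At 4 weeks it held 46.5, 8.58, 51.5, 7.48 and 6.51 normalized reads in OA and 20.3, 9.69, 46.4, 24.6 and 3.68 in sham. The OA group was split, with replicates 1 and 3 high and the other three at or under 8.58. OA and sham differed by 0.046 log2 units (SE 0.71, limma adjusted p = 0.989), and leaving out each library moved it from -0.41 to 0.42. In the 12-week libraries Nkg7 held 22.7, 24.5, 20.4 and 18.2 in OA and 29.5, 18.05, 22.9 and 40.2 in sham, a log2 difference of -0.30 (SE 0.25, limma adjusted p = 0.630), with -0.11 without sham replicate 4 and -0.48 without sham replicate 2.

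The 4-week OA libraries with high Nkg7 were those with high neutrophil markers. Summed over 7 neutrophil markers, OA replicates 1 and 3 held 10988 and 12489 normalized reads and OA replicates 2, 4 and 5 held 1140, 988 and 1079. The sham libraries held 4211, 1328, 1724, 3787 and 1858, so sham replicate 3, with 46.4 of Nkg7, was the highest sham library in Nkg7 and not in the neutrophil sum. At 12 weeks the neutrophil sums were 1895, 3486, 1024 and 1219 in OA and 4661, 1341, 1213 and 3705 in sham. There OA replicate 2 was the highest OA library in both. Among sham libraries replicate 4 was the highest in Nkg7 and replicate 1 in the neutrophil sum. The neutrophil markers' part in the Nkg7 values was not tested. Nkg7 was chosen for this comparison after its values were seen.

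**Figure D3:**
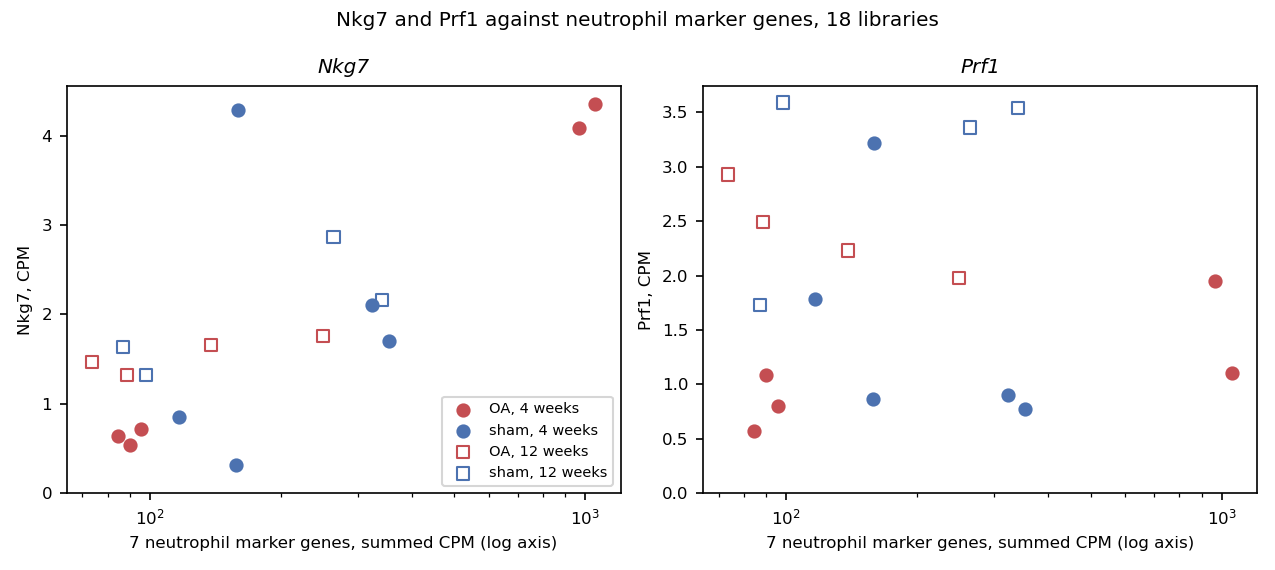
CPM of Nkg7 (left) and Prf1 (right) on linear y axes against the summed CPM of 7 neutrophil marker genes on a log x axis, 1 point per library, OA red, sham blue, 4 weeks filled circles, 12 weeks open squares. The 2 libraries with neutrophil sums of 966 and 1055 CPM, both 4-week OA, have Nkg7 at 4.08 and 4.35 CPM and Prf1 at 1.95 and 1.10.

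Whether the OA effect differed between 4 and 12 weeks was tested in limma for the 4 genes that averaged 10 or more recovered reads. No gene of the 4 passed, at an adjusted p under 0.05 (0% of all genes) or at an unadjusted p under 0.05 (3.18% of all genes). The 12-week minus 4-week differences in log2 CPM were 0.49 for Cd2 (SE 0.37), 0.021 for Cd8a (SE 0.38), -0.30 for Nkg7 (SE 0.85) and 0.022 for Prf1 (SE 0.50), with limma adjusted p from 0.956 to 0.997. The widest of these errors, that of Nkg7, belongs to the gene with the split 4-week OA group.

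The level of the T and NK cell genes varied among libraries of 1 group. In sham replicate 3 of 4 weeks the median of the 10 genes lay 1.60 log2 units above the other sham libraries, beside 1.49 for all genes of similarly low level. That library was the highest of its time point for 8 of the 10 genes (80.0%) and for 68.6% of all genes with a mean of 1 to 50. Sham replicate 5 lay at -0.97 for the 10 genes, the lowest of the 18 libraries, and at -0.42 for all low genes, while sham replicate 1 lay at -0.59 and -0.55. OA replicate 1 lay at 0.79 for the 10 genes and 0.37 for all low genes. The low-gene shift went the same way as the 10 genes in these 4 libraries, but not in all others. In OA replicates 3 and 4 of 4 weeks the 10 genes lay at 0.14 and -0.14, and all low genes at -0.15 and 0.12. The signs were also opposed in every 12-week sham library, as in its replicate 3 with -0.28 and 0.17. The part of the low-gene shift in the differences was not tested.

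**Figure D4:**
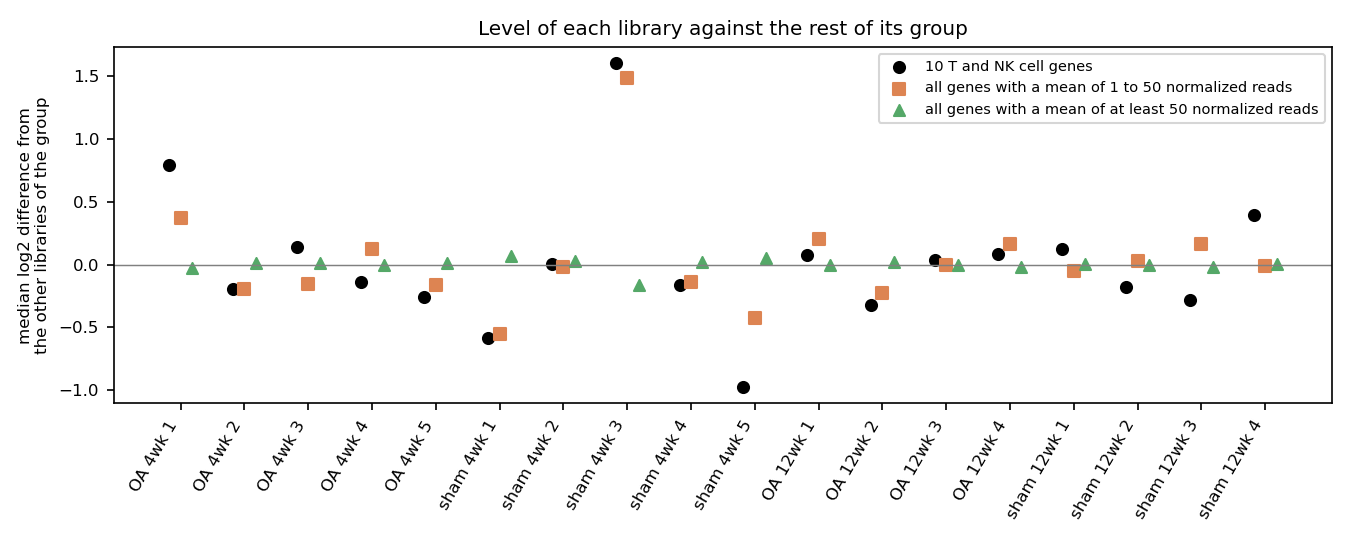
Median log2 difference of each library from the other libraries of its group (y axis) for the 10 T and NK cell genes (circles), all genes with a mean of 1 to 50 normalized reads (squares) and all genes with a mean of at least 50 (triangles), over the 18 libraries. In sham replicate 3 of 4 weeks the first 2 lie at 1.60 and 1.49 and the third at -0.16.

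Across the 18 libraries, after the group mean was removed, the 45 pairs of the 10 genes had Pearson correlations of their log2 levels from -0.57 to 0.74 with a median of 0.41. Without sham replicate 3 of 4 weeks the median was 0.30, over 17 libraries. Cd3d and Cd3e had r = 0.60, which was 0.37 without that library. Cd3e and Ncr1 had 0.74 and 0.70. These are descriptions of libraries that share depth, with no test.

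The genes whose levels were most like those of the CD3 chains over the 18 libraries, out of 14416, were Rxfp1 (r = 0.94), Dscaml1 (0.92), Sema4g (0.92), Lrp2 (0.91) and AABR07006030.1 (0.90). Rxfp1 encodes a relaxin receptor and Lrp2 the endocytic receptor megalin. Spearman's rho lay between 0.84 and 0.91, and r without the 2 farthest libraries between 0.77 and 0.86. Of these 5 genes, 4 were again among the 5 most alike without sham replicate 3 of 4 weeks. For Klrd1, Ncr1 and Prf1 they were AABR07024457.1 (r = 0.91), Il2rb (0.85), Esrrg (0.85), Rom1 (0.84) and AABR07066693.1 (0.84), with rho from 0.56 to 0.85. Here r without the 2 farthest libraries lay between 0.65 and 0.80, lowest for Il2rb. Of these 5 genes, 3 were again among the most alike without sham replicate 3 of 4 weeks. Il2rb encodes a receptor chain for interleukin-2 and interleukin-15, on which NK cells depend. For Nkg7 they included Padi4 (0.92), Adgrg3 (0.90), Mgam (0.88) and Mcemp1 (0.87), with rho from 0.87 to 0.95. Padi4 encodes an enzyme abundant in neutrophils, and it held 97.1 and 72.8 normalized reads in 4-week OA replicates 1 and 3 and 5.42 to 7.48 in the other 3 OA libraries. Its 4-week sham libraries held 23.9, 12.6, 51.1, 39.8 and 12.0, so it was also high in sham replicate 3.

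Of 25 other genes of the T cell receptor and T cell signalling, 15 entered limma at 4 weeks and 16 at 12 weeks, and limma, edgeR and DESeq2 called 0 of them at either time. At an unadjusted p under 0.05 in limma, 2 were lower in OA and 0 higher at 4 weeks, and 0 lower and 2 higher at 12 weeks. The median log2 difference was -0.18 at 4 weeks, beside 0.028 over all genes, and 0.059 at 12 weeks, beside -0.011. The lower ones at 4 weeks were Txk, a kinase of T cells, with a log2 difference of -1.12 (limma adjusted p = 0.563), and Lef1, a transcription factor, with -0.69 (limma adjusted p = 0.616). Both had their highest 4-week value in sham replicate 3, as did 18 of the 25 genes. Without that library 1 gene was lower at an unadjusted p under 0.05 (Txk, -0.91) and 0 higher, with Lef1 at -0.44 and a list median of -0.077. The higher ones at 12 weeks were Prkcq, a kinase of the receptor pathway, at 0.35 (limma adjusted p = 0.401), and Cd4, at 0.31 (limma adjusted p = 0.378). Cd4 is carried by helper T cells and, in the rat, by macrophages, and it held 11509 ± 1297 normalized reads in 12-week OA and 9357 ± 1580 in sham (SD, n = 4 each).

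Cd247 encodes the zeta chain that signals for the CD3 complex and for NKp46. At 4 weeks it held 2.06 to 9.97 normalized reads in OA and 3.68 to 32.5 in sham, a log2 difference of -1.09 (exact permutation test, two-sided, p = 0.0794), with the highest value again in sham replicate 3 and a difference of -0.68 without it. Its 12-week values were 7.51 to 16.1 in OA and 6.02 to 11.3 in sham, at 0.53 (limma adjusted p = 0.490). Of 10 genes of T helper and regulatory T cells, 2 entered limma, and limma, edgeR and DESeq2 called 0, with 0 at an unadjusted p under 0.05 in limma (1 at 4 weeks without sham replicate 3, Ccr6, at 0.64). These were Foxp3, the factor of regulatory T cells, at -0.20 and 0.078 at 4 and 12 weeks (limma adjusted p = 0.859 and 0.903, and 0.00065 at 4 weeks without sham replicate 3), and Ccr6, a chemokine receptor, at 0.49 and 0.15 (limma adjusted p = 0.639 and 0.799). Il2 was at 0 in every 12-week library.

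Of 29 NK receptors and cytotoxic effectors, 26 were in the tables, 12 entered limma at 4 weeks and 14 at 12 weeks, and limma, edgeR and DESeq2 called 0 at either time. At 4 weeks 1 was higher and 3 were lower in OA at an unadjusted p under 0.05 in limma. Ncr3, which encodes the activating receptor NKp30, was the higher one, with 82.1 ± 13.4 normalized reads in OA and 59.4 ± 9.90 in sham (SD, n = 5 each), a log2 difference of 0.46 (limma adjusted p = 0.547). Tbx21, which encodes the transcription factor T-bet, held 3.25 to 10.4 normalized reads in OA and 10.7 to 41.8 in sham. The groups did not overlap, and the log2 difference was -1.03 (limma adjusted p = 0.607). Its means were 7.12 in OA and 17.4 in sham, so it passed the filter through sham alone. Its entry into limma thus depended on the group where it was high. Of all genes tested at 4 weeks, 0.693% had every OA library below every sham library and 1.18% the reverse. Il2rb, named above among the alike genes, was at -0.999 (limma adjusted p = 0.607), and Klrc2 was the third lower gene. Sham replicate 3 was the highest library of 4 weeks for 17 of 25 genes of this list with a value above 0. Without it 1 gene was higher (Ncr3, 0.41) and 1 lower (Klrc2, -1.25) at an unadjusted p under 0.05, Il2rb was at -0.66, and Tbx21 no longer passed the filter, at -0.67.

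At 12 weeks 13 of the 14 NK and cytotoxic genes tested were lower in OA at any p, beside 52.5% of all genes, with a median log2 difference of -0.29 beside -0.011 over all genes, and 0 had an unadjusted p under 0.05. Those with the smallest p were Klrk1, which encodes the activating receptor NKG2D, at -0.43 (244 ± 40.8 normalized reads in OA, 338 ± 97.4 in sham, SD, n = 4 each, limma adjusted p = 0.427), and Cd226, another activating receptor, at -0.17 (limma adjusted p = 0.469). The remaining gene, Ncr3, was at 0.048. Some other lists were also mostly below 0 at 12 weeks: 5 of 5 mast cell genes (median -0.37), 5 of 5 cell cycle genes (-0.37), 5 of 5 dendritic cell genes (-0.15) and 5 of 6 neutrophil genes (-0.20). Macrophage genes were mostly above 0 (9 of 10, median 0.14), as were fibroblast (4 of 4, 0.58) and skeletal muscle genes (5 of 5, 0.79). So were the T cell receptor and signalling genes (10 of 16, 0.059). Genes of the NK receptor families lie close in sequence, so their reads may be shared.

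The ligands and cytokines that draw in or activate T and NK cells are made largely by myeloid and stromal cells, and 13 of 14 entered limma at each time. Limma and edgeR called 0 of them. At an unadjusted p under 0.05 in limma, 1 was higher and 4 were lower in OA at 4 weeks, and 2 were higher and 4 lower at 12 weeks. Without sham replicate 3, 1 was higher and 3 were lower at 4 weeks. Il18, an NK-activating cytokine, held 949 ± 120 normalized reads in OA and 676 ± 143 in sham at 4 weeks (SD, n = 5 each), at 0.51 (limma adjusted p = 0.403). Cxcl10, a ligand of the receptor CXCR3 on T and NK cells, held 247 ± 24.9 in OA and 344 ± 77.8 in sham at 4 weeks (SD, n = 5 each), at -0.46 (limma adjusted p = 0.511). Its 12-week values were 525 ± 88.6 and 761 ± 123 (SD, n = 4 each), at -0.53 (limma adjusted p = 0.278). DESeq2 called it at 12 weeks (adjusted p = 0.044). Cxcl9, a ligand of the same receptor, was at -0.51 (limma adjusted p = 0.575) and -0.67 (limma adjusted p = 0.278), and DESeq2 did not call it at 12 weeks (adjusted p = 0.0526).

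Among markers of other cell types, all 5 skeletal muscle genes and all 4 fibroblast genes measured were higher in 12-week OA at an unadjusted p under 0.05 in limma, and DESeq2 called Acta1, Myh7 and Tnni1 of the muscle genes. At the same p, 1 of 5 dendritic cell genes and 1 of 4 endothelial genes were lower in 12-week OA. The muscle genes summed to 744 to 1543 normalized reads in 12-week OA and 563 to 648 in sham. Their part in the 12-week differences of Ncr1 and Klrd1 was not tested. The macrophage markers, the labelled cells of the sort, had 0 of 10 genes at an unadjusted p under 0.05 at either time.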

How the data were processed

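RNA of CD11b/c-sorted rat synovial cells was compared between OA and sham libraries, grouped by the sample labels. Per the submitters' processing notes and the study's methods, the authors trimmed reads with fastp 0.20.0, aligned them to Rnor_6.0 with STAR 2.7.6a, removed duplicates with Sambamba, counted them with featureCounts 2.0.0 and normalized them with DESeq2 1.24.0 within each time point. The library kit was stranded, and whether featureCounts used strand is not given in the sources used here. What was deposited is a signal of DESeq2-normalized reads, with no value below 0. None of the deposited comparison columns was used (the authors' log2 fold changes and their errors, a Wald statistic, which is a score, and p-values). Of the deposited values 100% were whole multiples of 1 read in every library (tolerance 0.02 reads), which recovered the count of each gene. Depth limits the low genes: a library was taken to detect a gene above 3 reads, and that limit takes in counting error alone.

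At each time the OA and sham libraries were fitted in limma 3.58.1 (moderated test, mean-variance trend, R 4.3.3) on log2(normalized reads + 1), for genes that averaged 10 or more normalized reads (14861 at 4 weeks, 14666 at 12 weeks), with Benjamini-Hochberg adjustment over all of them. A fold change on this scale understates that of low genes. Each of the 10 genes also had an exact permutation test, two-sided and unadjusted, of mean log2 values. For the difference of the OA effect between times, an interaction term was fitted on log2 CPM of recovered reads (TMM, prior count 2, 14732 genes). edgeR 4.0.16 (quasi-likelihood) and DESeq2 1.42.0 on recovered reads, other pseudocounts, filters and scaling, a replicate block and leaving out each library were alternatives. Shares over low genes, and the gene lists, edgeR and DESeq2 without sham replicate 3 of 4 weeks, were added after seeing the data. Genes most alike were ranked by Pearson correlation with the mean standardized log2 level after group means were removed. The scripts were tested on simulated data. Python 3.11.15, numpy 2.4.6, pandas 2.3.3, scipy 1.17.1 and matplotlib 3.10.9 were used.

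The members and gene lists were chosen with earlier results of these data known. Named from each list were genes that passed the call in any tool, otherwise for the T and NK cell lists and their ligands the 2 with the smallest unadjusted limma p at each time, and Cd247, Cd4, Cd8b and Gzma. Il2rb, Klrc2, Cd48, Padi4 and the genes alike to Nkg7 were named after their values were seen. Of the genes most alike to Nkg7, 1 is not reported here. Pools of separate rats were the replicates. Gene lengths were not used, so levels are not compared between genes. Promoters came from RefSeq GRCr8, another assembly than that of the tables, by symbol.

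The replicate numbers did not pair the libraries: after group means were removed, same-numbered OA and sham libraries correlated at -0.13 to 0.080 at 4 weeks and -0.026 to 0.30 at 12 weeks, and they are pools of different rats.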

Additional observations from a re-analysis of the deposited data

Results flagged for a closer look

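Of 40 groups of values examined (10 genes in 4 groups), 6 held a library that stood apart from the rest of its group, by the gap to its nearest neighbour as a share of the group's range. The usual chance rate of about 1 in 20 groups allows for neither values of few reads nor flags that share a library. The 6 flags are thus not compared with that rate. Sham replicate 3 of 4 weeks was the highest of its group for Cd3g, with a gap of 0.958 of the range, for Cd3e (0.748) and for Gzmb (0.748). Sham replicate 1 of 4 weeks was the highest for Cd2 (0.822). Sham replicate 4 of 12 weeks was the highest for Cd3d (0.837), and sham replicate 3 of 12 weeks was the lowest for Prf1 (0.925). For Cd3g and Gzmb these values rest on at most 3 reads.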

How the results depend on the processing

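No member was called under any of the pseudocounts, filters, scalings, tools, the replicate block or when a library was left out, for OA against sham or for the difference between times. The count of members at an unadjusted p under 0.05 was 0 at 4 weeks in limma, 1 with every gene with a read, 2 in DESeq2 and 0 to 1 when each library was left out (1, Cd8a, without sham replicate 5). The DESeq2 count was 0 without sham replicate 3, an alternative chosen after seeing the data. At 12 weeks the count was 1 in limma, 0 with a mean of at least 50, 0 in DESeq2 and 1 to 2 when each library was left out (2, Ncr1 and Prf1, without sham replicate 3). The replicate block kept these counts at 0 and 1. For the difference between times it was 0 in limma and 1 both in DESeq2 and with every gene with a read (Cd3e) and without sham replicate 4 of 12 weeks (Cd2). The 4-week difference of Prf1 turned to 0.054 in edgeR and 0.050 in DESeq2 without sham replicate 3, alternatives chosen after seeing the data. When each library was left out, Nkg7 at 4 weeks ran from -0.41 to 0.42 and Prf1 at 4 weeks from -0.50 to 0.0040. The median of the 8 members that passed the floor in some or all libraries ran from -0.72 to -0.35 at 4 weeks. At 12 weeks that median ran from -0.43 to -0.16. Nkg7 at 4 weeks was 0.82 in edgeR and 0.75 in DESeq2 without sham replicate 3. The cause of these changes was not tested. With a library left out at 12 weeks the exact p of Klrd1 and Ncr1 was 0.0571, the smallest possible then, which says nothing about stability. Depth limits Cd3g and Gzmb, which lay at or under the floor everywhere.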
